A study of Rattus norvegicus with 10 samples.

Results

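Class II and class IV histone deacetylases are the HDAC families outside the enzymes that RG2833, an inhibitor of HDAC1 and HDAC3, is named for. The genes described here are Hdac4, Hdac5, Hdac7 and Hdac9 (class IIa), Hdac6 and Hdac10 (class IIb) and Hdac11 (class IV), with Mef2a, Mef2c and Mef2d, which encode the transcription factors that class IIa enzymes bind. They were taken by name, 10 genes in all, and 7 of them (Hdac4, Hdac5, Hdac9, Hdac10, Hdac11, Mef2a and Mef2d) had a row among the 17168 gene symbols of the tables. Hdac6, Hdac7 and Mef2c were not analysed here. All 7 passed the filter on low counts, which kept 11791 genes.

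Each of 10 female TgF344-AD rats gave 1 library, made from its left hippocampus at 11 months of age. TgF344-AD rats carry mutant human amyloid precursor protein and presenilin transgenes, which as background are driven by a mouse prion promoter, and both groups carry them. The 5 untreated rats ate ordinary rodent chow, and the 5 RG2833 rats ate chow with 750 mg of RG2833 per kg from 5 months of age, for 6 months. No rat without the transgenes was analysed here, so the comparison is that of treatment within the model, in females only. Because the libraries are from whole tissue, more cells of a type and more RNA per cell cannot be told apart.

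Class IIa deacetylases have little deacetylase activity of their own. In the nucleus they bind MEF2 factors through a domain near their amino terminus and bring in corepressor complexes that hold HDAC3. When calcium-dependent and other kinases phosphorylate them, 14-3-3 proteins bind and they leave the nucleus, which frees MEF2 to activate its targets, among them genes induced by neuronal activity. HDAC10 deacetylates polyamines, and HDAC11, the sole class IV enzyme, removes fatty acyl groups from lysine.

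Mef2a and Mef2d transcripts rose in RG2833 rats, and none of the 5 deacetylase transcripts tested passed. Of the 7 genes, 2 were called (edgeR quasi-likelihood test, Benjamini-Hochberg adjusted p under 0.05 over all genes tested), Mef2a and Mef2d, both higher in RG2833 rats. Among all tested genes 5.08% were called, 2.41% higher and 2.67% lower. The same 2 genes had an unadjusted p under 0.05, against 24.5% of all genes. They were also the 2 whose RG2833 values all lay on one side of the untreated values, as 7.27% of all genes did.

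The stretch just upstream of the start was compared among these genes, because 2 of them moved together and the deacetylase genes beside them did not pass. RefSeq promoter entries (build GRCr8, matched by symbol) were found for 8 of the 10 genes and 6 of the 7 tested. The 250 bases before the annotated start of Mef2a, Mef2d and Hdac5 are shown 5′ to 3′, on the strand of the gene, with each match to the MEF2 consensus in capitals. They lie at chr1:130392163-130392412 (Mef2a, minus strand), chr2:175904082-175904331 (Mef2d, plus strand) and chr10:87688055-87688304 (Hdac5, minus strand). The counts were made on another build, rn6.
Mef2a: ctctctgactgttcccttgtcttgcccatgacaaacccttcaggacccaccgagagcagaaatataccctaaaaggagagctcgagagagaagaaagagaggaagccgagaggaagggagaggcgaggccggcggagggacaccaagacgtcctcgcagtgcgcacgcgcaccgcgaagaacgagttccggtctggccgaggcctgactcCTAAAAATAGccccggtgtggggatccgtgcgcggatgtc
Mef2d: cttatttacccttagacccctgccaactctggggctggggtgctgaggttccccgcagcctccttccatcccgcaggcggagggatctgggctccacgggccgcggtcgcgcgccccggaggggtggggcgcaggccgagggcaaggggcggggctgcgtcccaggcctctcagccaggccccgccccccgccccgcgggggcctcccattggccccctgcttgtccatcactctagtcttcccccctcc
Hdac5: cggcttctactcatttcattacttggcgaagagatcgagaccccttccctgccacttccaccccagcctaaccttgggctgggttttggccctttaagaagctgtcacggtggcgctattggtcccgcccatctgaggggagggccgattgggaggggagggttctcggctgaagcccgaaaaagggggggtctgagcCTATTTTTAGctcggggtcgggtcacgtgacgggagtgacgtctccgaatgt

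The MEF2 consensus was searched on both strands. It matched once in Mef2a, beginning 40 bases before the start, and once in Hdac5, beginning 52 bases before it. It had no match in the windows of Mef2d, Hdac4, Hdac9 and Hdac10. Over all 33469 promoters of the same length, 2.96% held a match. The window of Mef2d was 73.2% G and C and held 3 GC boxes (GGGCGG, either strand), a motif that 30.5% of all promoters held. Hdac4, which was not called, also held 3 (64.4% G and C), and Mef2a, which was called, held 0 (59.6%). Hdac9 stood at the other end, at 34.4% G and C with 0 GC boxes, and the median of all promoters was 51.2%. The cAMP response element (TGACGTCA), the site of the activity-regulated factor CREB, matched in 0 of the 6 windows and in 1.59% of all promoters. CCAAT boxes (34.0% of all promoters) and E-boxes (CANNTG, 65.5%) were also searched, and Mef2a held 0 of either. These matches describe the letters only.

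Mef2d, a MEF2 factor of many tissues including neurons, was the member with the larger change. Its level in untreated rats 1 to 5 was 40.0, 64.1, 45.7, 77.0 and 70.0 TMM CPM (CPM stands for counts scaled to a common library size with edgeR's factors, the scale of all levels here), and in RG2833 rats 1 to 5 it was 110.0, 93.6, 99.0, 89.6 and 122 CPM. The groups did not overlap, and among the untreated rats 1 and 3 were lowest. The mean went from 59.4 ± 15.9 to 103 ± 13.2 CPM (SD, n = 5), a fold of 1.73. The log2 fold change was 0.79 ± 0.16 (SE; 95% interval 0.44 to 1.15; edgeR adjusted p = 0.0241).

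Mef2a, a MEF2 factor of neurons and muscle, rose less. The untreated rats were at 51.2, 51.8, 59.3, 76.7 and 78.4 CPM and the RG2833 rats at 85.9, 89.8, 88.2, 80.4 and 110.3 CPM. The groups did not overlap, but the highest untreated rat lay close below the lowest RG2833 rat. The mean was 63.5 ± 13.2 CPM without and 90.9 ± 11.4 CPM with RG2833 (SD, n = 5). The difference on the log2 scale was 0.52 ± 0.13 (SE; 95% interval 0.23 to 0.81; edgeR adjusted p = 0.0456). Both changes were above the median of 0.44 among all genes called higher.

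**Figure D1:**
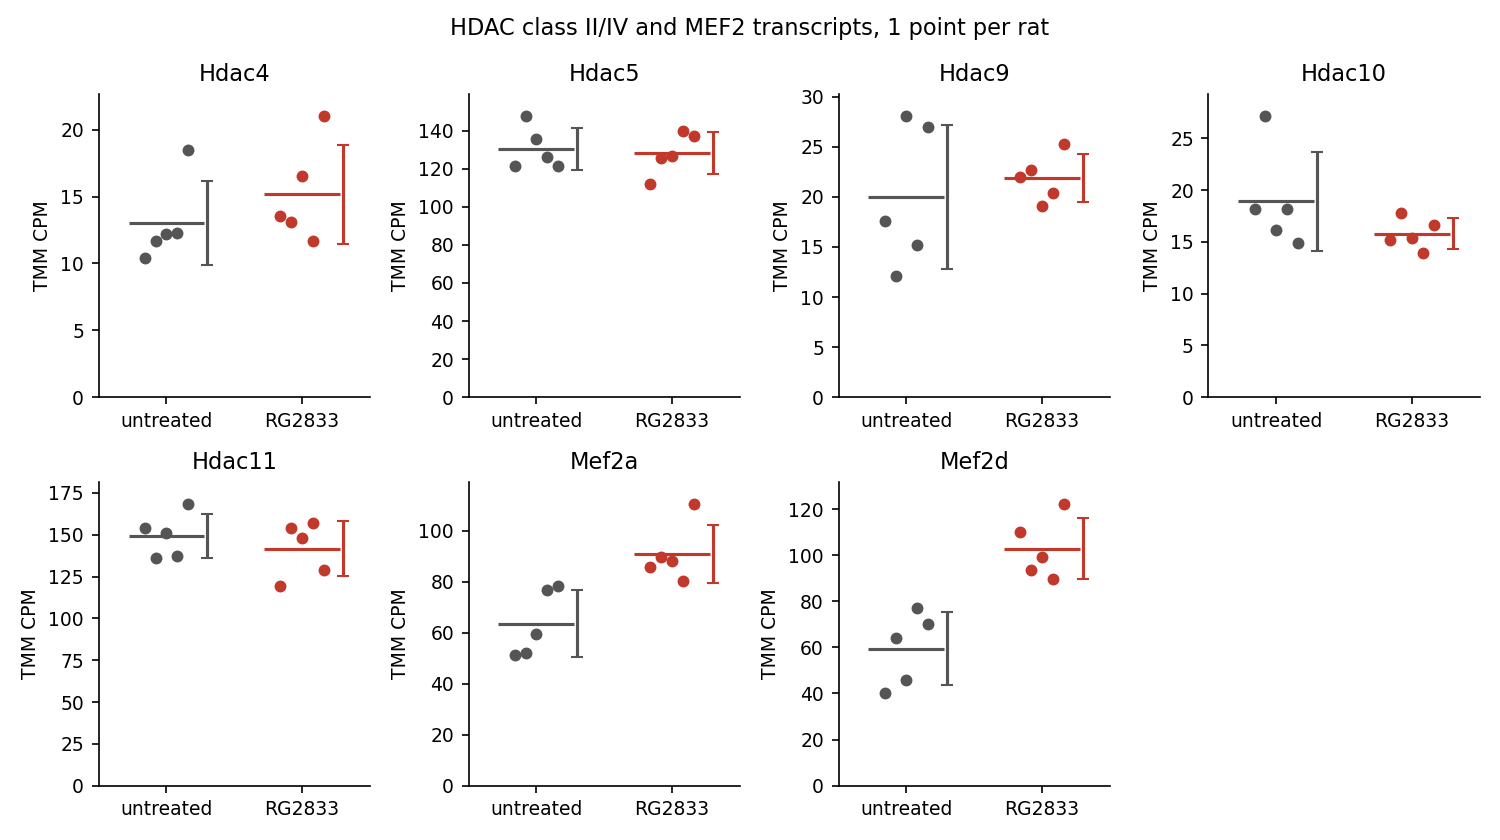
Level of each tested gene (TMM CPM, axis from 0) in the 5 untreated (grey) and 5 RG2833 (red) rats, with the mean as a line and the SD as a bar. For Mef2a and Mef2d every red point is above every grey point, while for the HDAC genes the groups overlap.

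Both calls were near the threshold, and each was lost in some fits that left out 1 rat. The adjustment depends on all genes, and those called went from 599 to between 98 and 1556 in these fits. In fits that left out 1 rat, Mef2d passed without untreated rat 1, 2, 4 or 5 or RG2833 rat 4 and did not pass without untreated rat 3 (edgeR adjusted p = 0.0642) or RG2833 rat 1, 2, 3 or 5 (edgeR adjusted p = 0.0586, 0.0568, 0.0607 and 0.0720). Mef2a passed without untreated rat 4 or 5 (edgeR adjusted p = 0.0135 and 0.0205) and in none of the other 8 fits (0.0656 to 0.119). The direction was the same in all 10 fits, with log2 fold changes of 0.68 to 0.90 for Mef2d and 0.44 to 0.60 for Mef2a.

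Features of the libraries moved with the groups as Mef2a and Mef2d did. Total counts ran from 8764266 to 11311673, and 3 counts, the floor used here, came to 0.342 CPM at most. Ribosomal RNA loci took 3.83 ± 1.29% of the counts in untreated and 1.56 ± 0.368% in RG2833 rats (SD, n = 5). These shares did not overlap (exact permutation, two-sided, p = 0.00794, which is the lowest value that 5 against 5 rats can give). The 6 excitatory neuron markers, all expressed, summed to 4861 to 6728 CPM in untreated and 6849 to 7496 CPM in RG2833 rats. Their mean log2 CPM was 0.54 higher in RG2833 rats (exact permutation p = 0.0317), and 1 of the 6, Camk2a, was called. Without untreated rat 1 or 2 the difference was 0.48 or 0.46 (exact permutation p = 0.0556 for both). The 6 endothelial markers were lower by a mean log2 difference of -0.32 (exact permutation p = 0.00794), with 0 of 6 called and summed levels of 199.8 to 305 CPM against 181 to 200.2 CPM. Without RG2833 rat 1 that difference was -0.28 (exact permutation p = 0.0556). Untreated rat 1 stood apart with 2381 CPM of Ttr, the choroid plexus transthyretin, against at most 38.4 CPM in the other 9 rats. Without that rat Mef2d still passed (log2 fold change 0.68, edgeR adjusted p = 0.0426) and Mef2a did not (0.45, edgeR adjusted p = 0.0900).

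When the fit held the log2 of the ribosomal RNA share, the estimate for Mef2d was 0.60 ± 0.32 and that for Mef2a 0.18 ± 0.25 (SE). With the excitatory marker mean as a covariate they were 0.62 ± 0.23 and 0.26 ± 0.17. Neither gene passed in these fits (smallest edgeR adjusted p = 0.756), which called 2 and 5 of all 11791 genes. Since the ribosomal RNA share separates the groups completely, it and the treatment cannot be told apart.

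**Figure D2:**
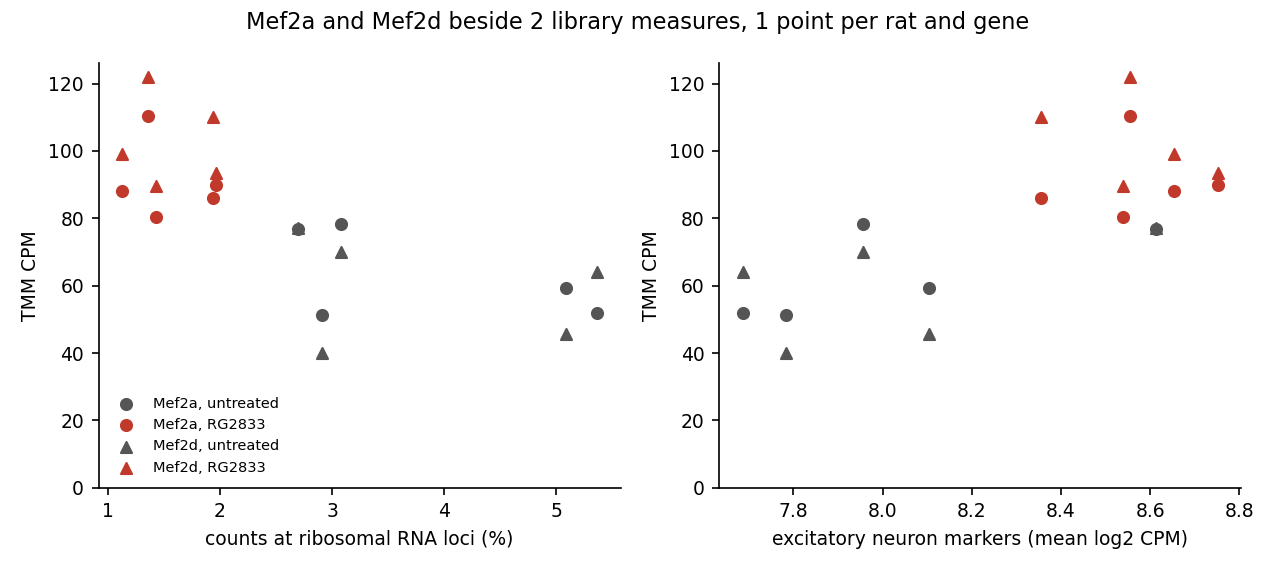
Mef2a (circles) and Mef2d (triangles) in TMM CPM against the percentage of counts at ribosomal RNA loci (left) and the mean log2 CPM of the excitatory neuron markers (right), 1 point per rat and gene. The red RG2833 points all lie at ribosomal RNA shares under 2.0%, the grey untreated points at 2.70% or more. Untreated rat 4 sits among the RG2833 rats in excitatory markers at 8.61. Its Mef2d of 77.0 CPM was the highest of the untreated rats and its Mef2a of 76.7 CPM close to the highest. Both lay below every RG2833 rat.

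None of the 3 class IIa deacetylase genes tested passed, and whether their changes differ from those of Mef2a and Mef2d was not tested. Hdac5 was among the steadiest members, at 122, 148, 135, 126 and 121 CPM in untreated and 112, 126, 127, 139.9 and 137 CPM in RG2833 rats. The log2 fold change was -0.02 ± 0.08 (SE; 95% interval -0.20 to 0.15; edgeR adjusted p = 0.880), so the interval reaches no further than a fall of 0.20 or a rise of 0.15. Hdac4, whose product is abundant in neuronal cytoplasm, was at 10.4, 11.7, 12.2, 12.3 and 18.5 CPM in untreated and 13.5, 13.1, 16.5, 11.7 and 21.0 CPM in RG2833 rats. Its difference of 0.22 ± 0.19 (95% interval -0.18 to 0.62; edgeR adjusted p = 0.490) was close to its standard error, and the groups overlapped widely. Rat 5 of each group was the highest for Hdac4, and the estimate was 0.38 without untreated rat 5 (edgeR adjusted p = 0.163) and 0.076 without RG2833 rat 5 (edgeR adjusted p = 0.847). With the ribosomal RNA covariate the estimates were -0.15 ± 0.37 for Hdac4 and 0.084 ± 0.16 for Hdac5 (SE), each smaller than its standard error.

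Hdac9, whose gene also yields a truncated MEF2-binding form without the catalytic domain, was the most variable member among untreated rats. The untreated rats were at 17.6, 12.1, 28.1, 15.2 and 27.0 CPM and the RG2833 rats at 21.9, 22.7, 19.1, 20.4 and 25.3 CPM. The RG2833 values all fell inside the untreated range, and the coefficient of variation was 35.9% in untreated and 10.8% in RG2833 rats, a difference in spread that was not tested. The log2 fold change was 0.13 ± 0.21 (SE; 95% interval -0.31 to 0.58; edgeR adjusted p = 0.735). Without untreated rat 2, the lowest, it was -0.0055, and without untreated rat 3, the highest, it was 0.28. It was 0.25 ± 0.42 (SE) with the ribosomal RNA covariate and 0.083 with the choroid plexus covariate. Isoforms are not separated in these tables.

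Hdac10, the polyamine deacetylase, had the lowest estimate, -0.26 ± 0.15 (log2, SE; 95% interval -0.59 to 0.07; edgeR adjusted p = 0.312). The untreated rats were at 18.2, 27.2, 16.1, 18.1 and 14.9 CPM and the RG2833 rats at 15.2, 17.8, 15.4, 13.97 and 16.6 CPM. With the ribosomal RNA covariate the estimate was 0.13 ± 0.28 and with the excitatory neuron covariate -0.098 ± 0.22 (SE). Untreated rat 2 stood above all others, and without it the estimate was -0.09 ± 0.11 (edgeR adjusted p = 0.653). Hdac11, which in brain is prominent in oligodendrocytes and neurons, was at 154, 136, 151, 137 and 168 CPM in untreated and 119.5, 154, 148, 157 and 129 CPM in RG2833 rats. Its log2 fold change of -0.08 ± 0.09 (95% interval -0.28 to 0.12; edgeR adjusted p = 0.6496) was within the spread between rats. It ran from -0.12 without RG2833 rat 4 to -0.020 without RG2833 rat 1, was -0.029 without untreated rat 5 and -0.043 without RG2833 rat 5, and was -0.19 with the ribosomal RNA covariate and -0.050 with the choroid plexus covariate.

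Across the 5 HDAC genes the median log2 fold change was -0.02, beside -0.0035 over all tested genes, and 0 of 5 had an unadjusted p under 0.05. In none of the 10 fits that left out 1 rat did any of the 5 pass over all genes, nor in any of the 12 other settings. The class I genes Hdac1, Hdac2, Hdac3 and Hdac8 gave estimates of -0.13 to 0.08 with 0 of 4 called (smallest edgeR adjusted p = 0.325, for Hdac3, the deacetylase that class IIa proteins recruit).

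**Figure D3:**
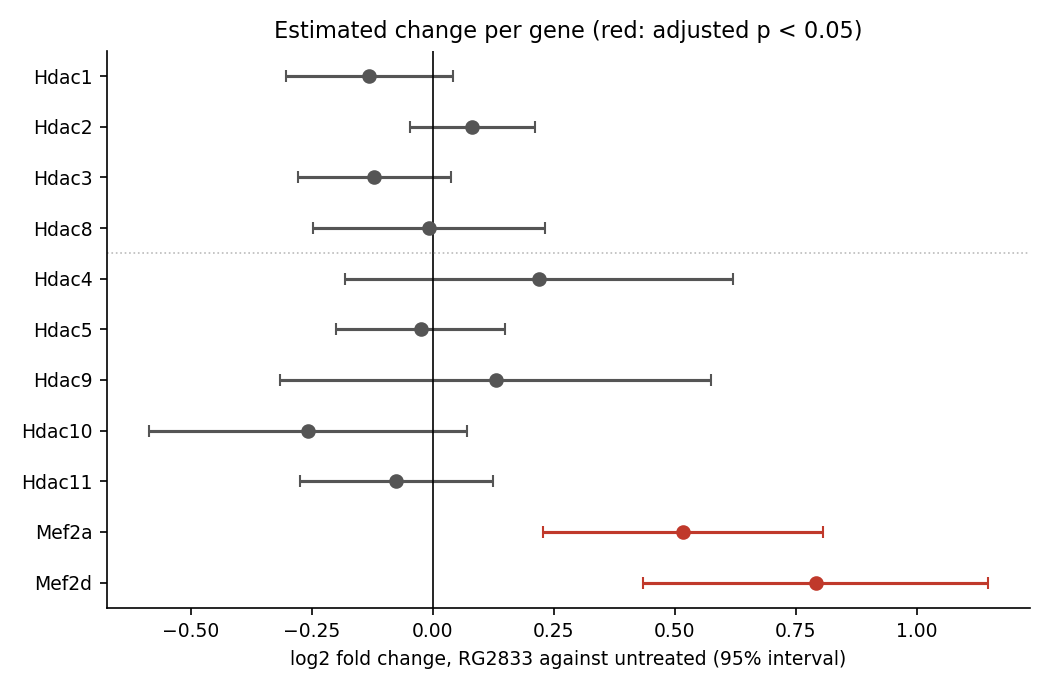
Log2 fold change (RG2833 against untreated) with its unadjusted 95% interval for the 4 class I genes (above the dotted line) and the 7 tested members. The intervals of Mef2a and Mef2d (red, called) lie above 0 and those of all 9 HDAC genes include it.

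The balance of MEF2 to class IIa transcripts within a rat is free of library scaling. The ratio of Mef2d to Hdac5 estimated counts was 0.329, 0.434, 0.337, 0.610 and 0.577 in untreated and 0.981, 0.744, 0.781, 0.641 and 0.890 in RG2833 rats. These ranges did not overlap. The ratio of Mef2a to Hdac5 ran from 0.351 to 0.645 in untreated and from 0.575 to 0.805 in RG2833 rats, which did overlap. The ratio to Hdac4 was 3.73 to 6.27 in untreated and 5.80 to 8.12 in RG2833 rats for Mef2d, and 4.23 to 6.24 and 5.24 to 6.88 for Mef2a. The ratio to Hdac9 was 1.63 to 5.31 in untreated and 4.13 to 5.18 in RG2833 rats for Mef2d, and 2.11 to 5.06 and 3.92 to 4.61 for Mef2a. Of the 6 ratios, 1 separated the groups, that of Mef2d to Hdac5. No test was made on the ratios, which rest on the members already described.

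Among rats of the same group, Hdac4 and Mef2a varied together. With log2 CPM centred on each group's mean, Pearson's r was 0.78 over the 10 rats (exact permutation within groups, p = 0.000833, adjusted p = 0.035 over 42 relations) and Spearman's rho of the ranks within groups was 0.85 (exact permutation p = 0.00931, adjusted p = 0.195). Without the 2 rats farthest from the median of Mef2a, r was 0.85. Hdac4 with Mef2d had the same rho of 0.85 (exact permutation p = 0.00931, adjusted p = 0.195), with an r of 0.58 (exact permutation p = 0.0674, adjusted p = 0.822). For Mef2a with Mef2d, r was 0.73 (exact permutation p = 0.0783, adjusted p = 0.822) and rho 0.70 (exact permutation p = 0.0522, adjusted p = 0.731), and without the 2 farthest rats r was 0.55. Of the 42 relations (all pairs of the 7 genes, and each gene with the log2 ribosomal RNA share and with the excitatory and oligodendrocyte marker means), 1 passed by Pearson's r and 0 by Spearman's rho after adjustment. All values of a rat share its library.

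The genes most like each member over the 10 rats, by Pearson's r of the same centred values, included Ehd3, Pgbd5 and Pkia for Mef2d (r from 0.96 to 0.98) and Ankrd52, Dgcr2 and Hivep2 for Mef2a (0.98 to 0.99). For Hdac4 they were Ubr1, Pfkfb2 and Pcyt1b (0.97 to 0.98) and for Hdac9 Mid1, Rabgap1l and Clstn3 (0.97 to 0.98). Hdac5 was closest to Csf1r (0.98), Hdac10 to Oplah, Camk2n1 and Hexa (0.94 to 0.96), and Hdac11 to Nadsyn1, Hist1h1d and Grik1 (0.91 to 0.94). These genes were picked as the closest among all tested genes, so the values describe likeness only.

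Of 17 genes listed for kinases that phosphorylate class IIa proteins or, as Camkk1 and Camkk2, activate such kinases, 16 were tested, 2 were called higher and 1 lower, where 2.41% of all genes were called higher and 2.67% lower. An unadjusted p under 0.05 was found for 11 of the 16, 8 of them higher and 3 lower in RG2833 rats, against 24.5% of all genes, and the median log2 fold change was 0.22. Camkk2, a calmodulin-dependent kinase that activates the CaMKI and CaMKIV enzymes, rose by 0.64 ± 0.14 (log2, SE; edgeR adjusted p = 0.0300), with 31.6 ± 6.97 CPM in untreated and 49.3 ± 6.86 CPM in RG2833 rats (SD, n = 5), with no overlap between groups. Camk2a, the forebrain CaMKII alpha subunit and also one of the excitatory markers, rose by 0.67 ± 0.17 (edgeR adjusted p = 0.0459). Camk1, a kinase that CAMKK2 activates, fell by 0.42 on the log2 scale, from 64.7 ± 9.81 to 48.4 ± 3.97 CPM (edgeR adjusted p = 0.0420). For both, the groups overlapped, and with the ribosomal RNA covariate the estimate for Camk1 was 0.010 ± 0.16 (SE).

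Of the 6 14-3-3 genes, whose products hold phosphorylated class IIa enzymes in the cytoplasm, 0 were called. Their estimates ran from -0.16 for Ywhaq to 0.15 for Ywhah (edgeR adjusted p = 0.287 and 0.368). Of 9 tested regulators of MEF2, 1 was called, beside 5.08% of all genes. An unadjusted p under 0.05 was found for 4 of the 9, all higher, against 24.5% of all genes. The estimates ran from 0.058 to 0.61, with a median of 0.18. Cabin1, which encodes a protein that represses MEF2 and binds calcineurin, rose from 118 ± 10.2 to 154 ± 11.0 CPM (0.38 ± 0.08; edgeR adjusted p = 0.0225), and its groups did not overlap.

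Of 14 genes described as MEF2 targets in neurons, 13 were tested and 4 were called, all higher, beside 2.41% of all genes called higher, with a median log2 fold change of 0.51. They were Egr1 (1.18 ± 0.21, SE), Arc (1.05 ± 0.19), Nr4a1 (0.90 ± 0.22) and Fosb (0.82 ± 0.17), with edgeR adjusted p-values of 0.0138, 0.0144, 0.0394 and 0.0251. These 4 are activity-induced genes that many factors besides MEF2 control, and their rise was known when the list was made. Jun and Klf6 had estimates of -0.11 and -0.02 (edgeR adjusted p = 0.671 and 0.940).

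Genes around HDAC6, the tubulin deacetylase, included opposite changes among tubulins. Of 12 tested, 3 were called higher and 1 lower, beside 2.41% and 2.67% of all genes. Atat1, the tubulin acetyltransferase that opposes HDAC6, rose by 0.38 ± 0.07 (log2, SE; edgeR adjusted p = 0.0183), with 45.2 ± 3.38 CPM in untreated and 58.9 ± 3.60 CPM in RG2833 rats (SD, n = 5). Cttn, which encodes the actin-binding substrate cortactin, rose by 0.34 ± 0.09 (edgeR adjusted p = 0.0412). Tuba1c rose by 0.47 ± 0.10 and Tuba1b changed by -0.83 ± 0.14 (edgeR adjusted p = 0.0260 and 0.0114). In these 4 genes the groups did not overlap, but the alpha-tubulin genes are near-identical copies, and the split of reads between them is uncertain.

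The 11 polyamine genes, whose metabolites include the substrate of HDAC10, had 0 calls and a median of -0.05. The smallest p-values belonged to Sat1, the spermidine acetyltransferase (-0.32 ± 0.11, SE; edgeR adjusted p = 0.0929), and Sms, spermine synthase (-0.24 ± 0.08; edgeR adjusted p = 0.0961).

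**Figure D4:**
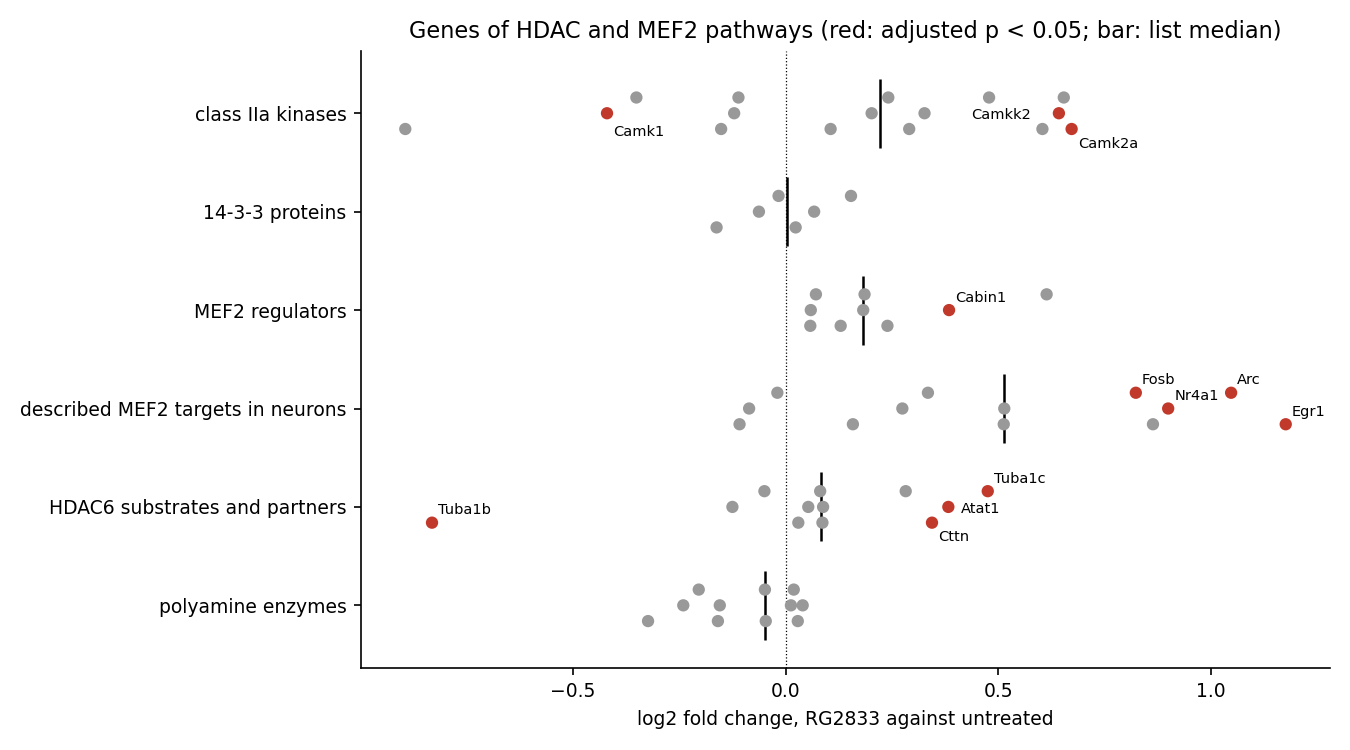
Log2 fold change (RG2833 against untreated) of each tested gene in 6 lists around the HDAC and MEF2 proteins, with called genes in red and the list median as a black bar. The MEF2 target list has 4 red points at 0.82 to 1.18, and the 14-3-3 and polyamine lists have 0.

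Several of these calls were also lost when 1 rat was left out. Arc, Egr1 and Tuba1b passed in all 10 fits that left out 1 rat, Atat1 in 6, Cabin1 in 5, Fosb and Tuba1c in 4, Camkk2 in 3, Nr4a1 and Cttn in 2, and Camk1 and Camk2a in 1, with no change of direction. With the ribosomal RNA share or the excitatory marker mean as a covariate 0 of these 12 genes passed. The replicate block ended the calls of Atat1, Cabin1, Fosb, Tuba1c, Cttn and Camk1 (edgeR adjusted p from 0.0551 to 0.0948). The choroid plexus covariate ended the calls of Camk1, Camk2a, Camkk2, Nr4a1 and Cttn (edgeR adjusted p from 0.0564 to 0.0742), limma-voom that of Camk1 (adjusted p = 0.0510) and a fit with no filter that of Cttn (edgeR adjusted p = 0.0507). With the ribosomal RNA share the estimates were as large or larger for Arc (1.07), Nr4a1 (1.14), Fosb (1.31), Tuba1c (0.48) and Atat1 (0.39). They were smaller for Egr1 (0.60), Camk2a (0.48), Cabin1 (0.34), Camkk2 (0.12), Cttn (0.13) and Tuba1b (-0.55). With the excitatory marker mean the estimates were as large or larger for Fosb (1.06) and Tuba1c (0.53). They were smaller for Arc (0.73), Egr1 (0.71), Nr4a1 (0.47), Atat1 (0.34), Camkk2 (0.34), Cabin1 (0.30), Camk2a (0.26), Cttn (0.11), Camk1 (-0.16) and Tuba1b (-0.60). Camk2a is itself part of that marker mean, so its fit with this covariate cannot show whether its change is separate.

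Other cell types were measured by lists of 6 markers each, and those of the next 4 were all tested. Oligodendrocyte markers, beside Hdac11, summed to 5679 to 17658 CPM in untreated and 9002 to 12182 CPM in RG2833 rats, with 0 called and a mean log2 difference of 0.24 (exact permutation p = 0.429). That difference was 0.46 without untreated rat 1, 0.37 without untreated rat 4, 0.16 without untreated rat 5 and 0.12 without untreated rat 2 or 3. Inhibitory neuron (-0.07, exact permutation p = 0.690) and astrocyte markers (0.06, exact permutation p = 0.563) had 0 called. Leaving out 1 rat gave -0.16 (without untreated rat 4) to 0.036 (without untreated rat 5) for the inhibitory markers, and 0.017 (without RG2833 rat 4) to 0.13 (without RG2833 rat 1 or untreated rat 2) for the astrocyte markers. Microglial markers differed by -0.19 (exact permutation p = 0.167), and by -0.11 without untreated rat 2, with Aif1 called lower (-0.74 ± 0.20, SE; edgeR adjusted p = 0.0496). That call was kept in 2 of the 10 fits that left out 1 rat. It was lost with no filter, in limma-voom, in both limma trend fits, with the replicate block (edgeR adjusted p = 0.0989) and with each covariate. Choroid plexus markers, of which 2 of 6 were tested and 0 called, differed by -1.03 (exact permutation p = 0.563), and by 0.19 without untreated rat 1. The subfield markers of the hippocampus, of which 6 of 8 were tested, were 0.62 higher (exact permutation p = 0.0714) and 0.86 higher without untreated rat 4 (exact permutation p = 0.0159), and Wfs1, a CA1 marker, ran from 63.9 to 588 CPM among untreated rats. The part of these differences in the results above was not tested beyond the covariate fits given.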

How the data were processed

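The authors deposited RSEM expected counts per gene symbol without scaling and a normalized signal that they made as CPM after TMM scaling, per the file headers and names. The submitters' processing notes name bcl2fastq 2.17, Bowtie2 2.1.0, RSEM 1.2.15, edgeR and build rn6. The annotation is not given in the sources used here. Libraries were stranded mRNA, per the labels' protocols.

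Expected counts were rounded. Low genes were removed with filterByExpr, and edgeR 4.0.16 (R 4.3.3) quasi-likelihood fits used TMM scaling, all 10 rats and no covariate, with Benjamini-Hochberg adjustment. The standard error is the log2 fold change over the root of F. Levels are TMM CPM of the tested genes, and a prior count of 2 was added for log2 CPM. For the members, the deposited signal differed by at most 0.00844% from TMM CPM recomputed on all genes, and by more from the levels printed here, which are scaled on the tested genes. Alternatives were other scalings and filters, DESeq2 1.42.0, limma 3.58.1, a replicate block, 3 covariates and leaving out each rat. The scripts were tested on simulated data. Within groups, chi-square per degree of freedom of library pairs was at least 4.60, above sampling noise.

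The members and lists were chosen with earlier results of these data known. Genes named are the members, called genes of the lists (where none, the 2 smallest p-values) and the 3 genes most like each member, and some genes and 1 list that these rules name are not reported here. Jun, Klf6, Ttr and Wfs1 were named after their values were seen. Of 147 list entries 140 had a row, 2 under an older symbol. The p-values measure the spread between these rats.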

Additional observations from a re-analysis of the deposited data

Results flagged for a closer look

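Of 66 groups of 5 values checked (each tested member, each called gene of the lists, the total count, the ribosomal RNA share and each marker mean, in both treatment groups), 4 held a value whose gap to its neighbour was over 0.71 of the group's range, Dixon's limit for 5 samples. Chance gives about 3.3. Hdac4 was 18.5 CPM in untreated rat 5 against 10.4 to 12.3 CPM in the other untreated rats. Hdac10 was 27.2 CPM in untreated rat 2 against 14.9 to 18.2 CPM. Egr1 was 89.6 CPM in untreated rat 4 against 34.0 to 49.2 CPM. The endothelial marker mean was 4.61 log2 CPM in RG2833 rat 1 against 4.75 to 4.81 in the other RG2833 rats. The causes were not tested.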

How the results depend on the processing

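The count of 2 called members held with DESeq2 size factors, both other filters, DESeq2's Wald test, limma-voom and limma trend at both pseudocounts. It was 1 with library totals only and with the choroid plexus covariate (Mef2d in both), and 0 with the replicate block, the ribosomal RNA covariate and the excitatory neuron covariate. Leaving out each rat gave 0 to 2. The count at an unadjusted p under 0.05 was 0 with the ribosomal RNA covariate, 1 with the excitatory covariate, 2 in the other settings with all rats, and 2 to 4 when 1 rat was left out, 4 only without untreated rat 5. All genes called numbered 599, and 1295 by DESeq2's Wald test, 180 with the replicate block, 2 with the ribosomal RNA covariate, 5 with the excitatory covariate, 241 with the choroid plexus covariate and 98 to 1556 when 1 rat was left out, the highest without untreated rat 4. The cause was not tested.

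Mef2a and Mef2d kept their direction in all 22 alternatives, and some other values turned. With the ribosomal RNA covariate Hdac4 was -0.15, Hdac5 0.084, Hdac10 0.13 and Camk1 0.010, and with the excitatory covariate Hdac5 was 0.0033. Each of these was smaller than its standard error. Leaving out 1 rat gave -0.064 to 0.024 for Hdac5 (positive without untreated rat 2 or RG2833 rat 1) and -0.0055 to 0.28 for Hdac9 (negative without untreated rat 2). The marker differences ran from -0.16 to 0.036 for inhibitory neurons (positive without untreated rat 5) and -1.75 to 0.19 for choroid plexus (positive without untreated rat 1). Same-numbered rats are different animals, and their deviations correlated at -0.32 to 0.15. These were not compared with rats of different numbers, so whether the numbers carry a pairing was not tested. With the replicate block the edgeR adjusted p was 0.0506 for Mef2d and 0.0545 for Mef2a. Counting error limits the low genes most, with 91 to 201 counts per rat for Hdac4.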
